A study of Mus musculus with 12 samples.

Results

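The FOXA factors are 3 paralogous genes, Foxa1, Foxa2 and Foxa3, chosen by name and matched from their Ensembl identifiers to GENCODE M21. They are 3 of the 53715 genes quantified in RNA-seq of mouse pancreatic ductal adenocarcinoma organoids, and all 3 passed the filter on low counts. Both the FOXA genes and the gene lists used below were chosen with earlier results of these data known. FOXA proteins carry a winged-helix DNA-binding domain and can bind their sites in compacted chromatin, which has earned them the name pioneer factors. Foxa1 and Foxa2 act in the developing endoderm and pancreas, and Foxa3 is best known from liver, testis and mucus-producing epithelium. The series deleted and reinstated Spdef, which encodes a transcription factor of the ETS family known from goblet and other mucus-secreting cells.

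The libraries came from 2 organoid lines, mT6 and mT69a, both from tumours of the KPC model and grown in Matrigel domes. The labels give C57/Bl6 as the strain and KrasLSLG12D/+; Trp53LSLR172H/LOH; Pdx1-Cre as the genotype of every library, so the Cre driver acts in the Pdx1-expressing pancreas and all groups carry the same tumour alleles. The series text names the Trp53 allele as heterozygous with the wild type, which differs from the LOH of the labels. In each line there were 3 groups of 2 libraries. The control was a clone with a knockout at mRosa26, a neutral locus, and an empty vector. The knockout was a Spdef knockout clone (KO1) with an empty vector. The third group was the same Spdef knockout with the SPDEF over-expression vector, and is called SPDEF vector here. The titles name 1 knockout clone per line, so loss of Spdef and differences between clones cannot be told apart. No animal age is given. Nothing in the labels tells separate cultures from repeat libraries of 1 culture, and the p-values speak only of the spread between libraries.

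The targeted gene, Spdef, was read at 30 and 29 expected counts in the mT6 controls (library 1, then library 2). The mT6 knockouts gave 0 and 2, and the mT6 SPDEF vector libraries 1 and 0. The mT69a controls gave only 2 and 4 counts, against 2 and 0 in the knockouts and again 2 and 0 with the SPDEF vector. Spdef was therefore low in the mT69a controls already, and its counts do not check the vector label in either line: every direction given for the SPDEF vector groups rests on the label. Depth ran from 9094295 to 28903831 expected counts per library. The mitochondrial share was 12.7% to 15.5% for number 1 libraries and 18.6% to 27.1% for number 2 libraries. Epithelial markers summed to between 4160 and 7410 CPM (normalised counts scaled to a common library size), and none of the 10 was at 0 throughout. The summed level of 10 fibroblast markers ran from 0 to 0.708 CPM, with Col3a1, Lum and Thy1 at 0. For 10 immune markers it ran from 2.35 to 12.1 CPM, led by Cd68, with Adgre1, Cd3e, C1qa and C1qb at 0. The 6 endothelial markers summed to at most 1.07 CPM and the 11 acinar markers to at most 4.72 CPM. Of the 12 endocrine markers, 9 were at 0 in every library, Ins1, Ins2, Gcg and Sst among them.

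The genes lie apart in the mouse genome (GRCm38). Foxa1 (ENSMUSG00000035451.7) is at chr12:57540628-57546916, Foxa2 (ENSMUSG00000037025.11) at chr2:148042877-148046969 and Foxa3 (ENSMUSG00000040891.6) at chr7:19013284-19023538, all on the minus strand, and no annotated gene overlaps any of them on either strand. Nearly all reads of each gene were assigned to a single transcript, Foxa1-201, Foxa2-202 or Foxa3-201. The exceptions were Foxa1-202, which took 1.47% of the Foxa1 isoforms in the second mT6 control library and 2.93% in the first mT6 knockout library, and Foxa2-203, which took 6.76% of the Foxa2 isoforms in the second mT69a control library. Foxa2-201, the transcript from the upstream start, had 0 counts in all 12 libraries. The longest identical run shared by the main transcripts was 38 bases, between Foxa1 and Foxa2. Between Foxa3 and either of the others it was 20 bases. Every gene-level count of the 3 genes was a whole number, with no fraction of a read.

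Because the paralogs moved differently, the 250 bases upstream of the start of each main transcript are shown (RefSeq, GRCm38.p6, 5′ to 3′ on the gene's strand). The Foxa1 window is chr12:57546112-57546361, inside the Foxa1 locus given above. That of Foxa2 is chr2:148045949-148046198, upstream of the Foxa2-202 start and inside the Foxa2 locus. That of Foxa3 is chr7:19023540-19023789, outside the Foxa3 locus. Capitals mark exact matches, on either strand, to 3 forms of the forkhead core or to 2 ETS-type sequences. Shorter or otherwise spelled forms were not searched for. The first forkhead form was TGTTTAC. The next form searched for was TGTTTGC. The last of these forms was TGTTTAT. The ETS-type sequences searched for were GGAAGT and, apart from it, CGGATG.
Foxa1: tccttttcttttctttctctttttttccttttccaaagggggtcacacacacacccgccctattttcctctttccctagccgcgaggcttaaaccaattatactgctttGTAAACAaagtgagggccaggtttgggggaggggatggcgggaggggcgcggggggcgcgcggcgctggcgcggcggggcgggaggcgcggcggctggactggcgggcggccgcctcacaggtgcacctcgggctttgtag
Foxa2: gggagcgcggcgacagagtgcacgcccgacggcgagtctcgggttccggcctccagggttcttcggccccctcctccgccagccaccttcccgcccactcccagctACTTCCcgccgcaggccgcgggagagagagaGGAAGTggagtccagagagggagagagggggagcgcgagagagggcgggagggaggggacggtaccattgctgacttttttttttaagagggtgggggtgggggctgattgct
Foxa3: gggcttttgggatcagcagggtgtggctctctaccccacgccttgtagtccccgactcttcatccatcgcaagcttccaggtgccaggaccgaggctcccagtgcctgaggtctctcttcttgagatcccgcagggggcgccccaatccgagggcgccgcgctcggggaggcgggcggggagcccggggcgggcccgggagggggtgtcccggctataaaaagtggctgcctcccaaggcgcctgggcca
The Foxa1 window holds 1 match, TGTTTAC read on the opposite strand, letters found in 3.17% of 32851 promoter windows of this length. The Foxa2 window holds GGAAGT once on each strand, and 19.7% of the windows hold it. In the Foxa3 window none of these exact spellings occurs. This says only that they are not in this window, and not that it lacks shorter forkhead or ETS forms. Any of the 3 forkhead forms occurs in 11% of the windows and the second ETS-type sequence in 4.9%. Guanine and cytosine made up 62.0%, 67.2% and 68.8% of the Foxa1, Foxa2 and Foxa3 windows.

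Foxa1, the paralog often described beside steroid receptors in breast and prostate, differed between the lines and not detectably between the conditions. In the mT6 controls it stood at 42.3 and 29.9 CPM (36.1 ± 8.75, SD, n = 2). The mT6 knockouts had 35.8 and 24.8 CPM and the mT6 SPDEF vector libraries 41.2 and 29.6 CPM. These 3 groups overlapped, and in each of them library 1 was the higher. In mT69a, Foxa1 was at 5.75 and 7.27 CPM in the controls, 7.47 and 7.65 CPM in the knockouts and 8.25 and 7.31 CPM in the SPDEF vector libraries. The mT69a controls were the lowest group, just under the mT69a knockouts, and every mT69a library lay far below every mT6 library.

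The change of Foxa1 from control to knockout, averaged over the lines, was -0.02 on the log2 scale (SE 0.175, 95% interval -0.41 to 0.37, edgeR adjusted p = 0.986), in a comparison that called 5.6% of all genes. By line it was -0.25 (interval -0.77 to 0.27) in mT6 and 0.22 (interval -0.36 to 0.79) in mT69a. From knockout to SPDEF vector the averaged value was 0.14 (interval -0.25 to 0.53, adjusted p = 0.767), where 7.77% of genes were called. From control to SPDEF vector it was 0.12 (interval -0.27 to 0.51, adjusted p = 0.735), where 14.5% were called. These 3 comparisons share their groups in pairs and are not independent. The intervals allow changes in either direction, so a lack of effect was not shown. Leaving out single libraries turned the sign of several of these values, the averaged knockout value ranging from -0.16 to 0.12.

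Between the lines Foxa1 was 5.22-fold lower in mT69a than in mT6 among the controls (ratio of normalised summed counts, 95% exact interval 4.5 to 6.08 for counting error only). It was 3.81-fold lower among the knockouts and 4.5-fold lower among the SPDEF vector libraries. The tests gave log2 differences of -2.47 (SE 0.254, adjusted p = 8.34e-05), -2 (adjusted p = 0.00041) and -2.18 (adjusted p = 0.000328). The lines differ at many genes: 28.2%, 25.3% and 17.8% of genes were called in the same 3 comparisons.

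**Figure D1:**
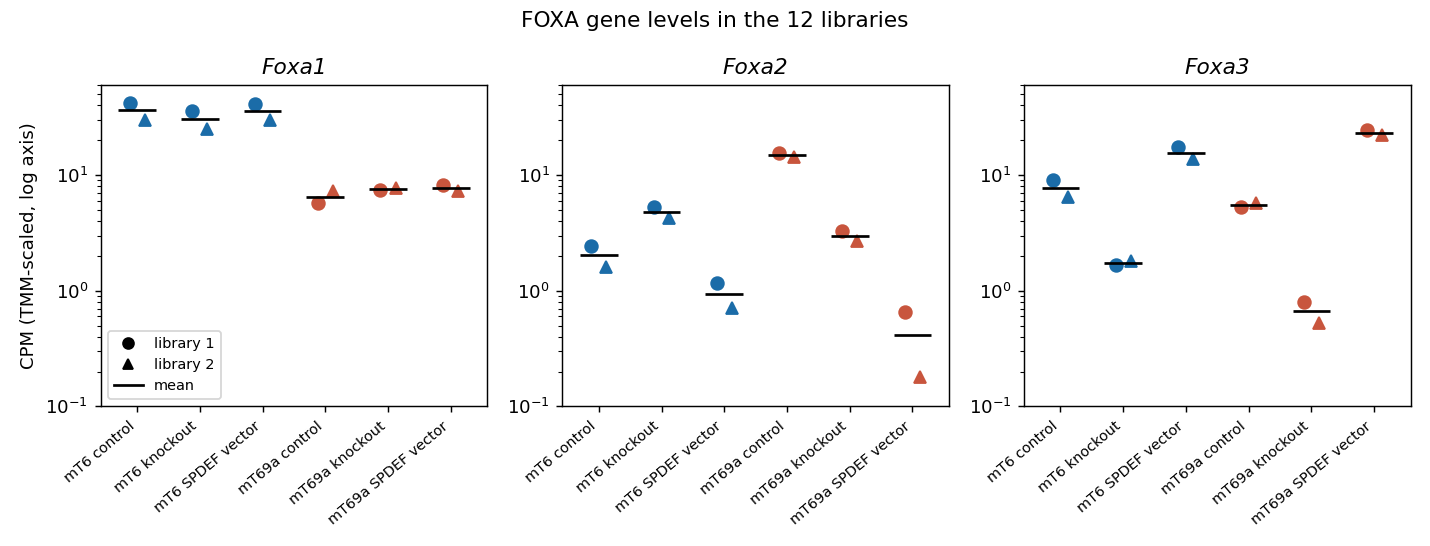
Levels of Foxa1, Foxa2 and Foxa3 in CPM (log axis) in the 12 libraries, mT6 in blue and mT69a in red, with circles for library 1, triangles for library 2 and a line at the group mean. Foxa1 separates the lines, Foxa3 falls in each knockout and is highest in each SPDEF vector group (22.2 and 24.3 CPM in mT69a), and Foxa2 is highest in the mT69a controls (14.3 and 15.4 CPM).

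Foxa2, a regulator of pancreas development and islet function, was the paralog whose response to the knockout differed between the lines. The mT6 controls had 2.44 and 1.61 CPM (32 and 45 counts), and the mT6 knockouts 5.31 and 4.23 CPM (60 and 86 counts). The mT69a controls had 15.4 and 14.3 CPM (247 and 212 counts), and the mT69a knockouts 3.28 and 2.7 CPM (61 and 31 counts). So the knockouts lay above their controls in mT6 and below them in mT69a. In both lines the SPDEF vector libraries were the lowest, at 1.17 and 0.704 CPM in mT6 (10 and 6 counts) and at 0.653 and 0.18 CPM in mT69a (11 and 2 counts). The order of the group means from the top was mT69a controls, mT6 knockouts, mT69a knockouts, mT6 controls, mT6 SPDEF vector and mT69a SPDEF vector. These groups of 2 libraries did not overlap, but how many genes do the same was not counted. Some steps of the order were not called. The edgeR adjusted p was 0.194 between the knockout lines, 0.227 between the SPDEF vector lines and 0.183 between mT6 control and SPDEF vector.

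In the mT69a knockout the log2 change of Foxa2 was -2.30 (SE 0.34, adjusted p = 0.00202), which places it among the 3.71% of genes called lower there (8.6% in either direction). The normalised count was 4.87-fold lower (interval 3.88 to 6.16). In mT6 the knockout value was 1.26 (SE 0.352, 95% interval 0.48 to 2.04, adjusted p = 0.091), a 2.47-fold higher count that did not pass the test across all genes. There 3.23% of genes were called, 1.28% higher. The mT6 value passed with the replicate number as a block (1.27, adjusted p = 0.00655), in DESeq2 (1.27, adjusted p = 0.0466) and without the count filter (1.25, adjusted p = 0.00675). It did not pass with RLE scaling factors (1.26, edgeR adjusted p = 0.0921). In limma it failed on log2(TPM + 1) (0.79, adjusted p = 0.321), on log2(TPM + 0.1) (1.19, adjusted p = 0.574) and on log2(TPM + 1) without a filter (0.79, adjusted p = 0.435). The difference between the lines in this response was -3.56 (SE 0.488, adjusted p = 0.00206), in a test of the difference that called 6.62% of genes. Averaged over the lines the opposite signs left -0.52 (SE 0.242, adjusted p = 0.281).

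The SPDEF vector libraries were lower in Foxa2 than the knockouts, with a log2 change of -2.52 averaged over the lines (SE 0.307, adjusted p = 0.000618). In this comparison 3.32% of genes were called lower. By line the values were -2.33 in mT6 (adjusted p = 0.0158, with 2.69% of genes called, 1.14% lower) and -2.71 in mT69a (adjusted p = 0.00666, with 4.25% called, 1.68% lower). The count was 4.93-fold lower in mT6 (interval 2.93 to 8.85) and 6.57-fold lower in mT69a (interval 3.66 to 12.8). The 2 falls differed by -0.38 (SE 0.632, 95% interval -1.78 to 1.02, adjusted p = 1), an interval wide enough that a difference was not detectable at this depth. The calls within single lines rested on few libraries. In mT6 the adjusted p rose to 0.126 without the second SPDEF vector library and to 0.0792 without the first knockout library, and in mT69a to 0.0542 without the first knockout library. The averaged call held in all 12 fits that left out a library, with adjusted p of at most 0.00396.

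Against the controls, Foxa2 in the SPDEF vector libraries had a log2 value of -5.01 in mT69a (SE 0.428, adjusted p = 4.97e-05), a 32-fold lower count (interval 18.5 to 60.5). Its size rested on the second mT69a SPDEF vector library, without which it was -4.49, and on the first, without which it was -6.30. The call held in all 12 fits without a library, with adjusted p of at most 0.000946. In mT6 the value was -1.07 (SE 0.444, adjusted p = 0.183). Among all genes 12.4% were called in mT69a, 5.36% lower, and 8.6% were called in mT6. The difference between the lines was -3.94 (SE 0.653, adjusted p = 0.00617), where 6.03% of genes were called. Averaged over the lines the value was -3.04 (SE 0.305, adjusted p = 0.000118), with 6.41% of genes called lower.

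The line with more Foxa2 changed with the condition. Among the controls Foxa2 was 7.95-fold higher in mT69a than in mT6 (interval 6.23 to 10.3), with a log2 difference of 2.91 (SE 0.35, adjusted p = 0.000235). Among the knockouts the difference was -0.65 (adjusted p = 0.194), and -0.68 with adjusted p = 0.0457 under the replicate block. Among the SPDEF vector libraries it was -1.04 (SE 0.545, adjusted p = 0.227), from 16 counts in mT6 and 13 in mT69a.

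Foxa3, the paralog expressed in mucus-producing airway and gut epithelium, had the same order of conditions in both lines: lowest in the knockout, intermediate in the control and highest with the SPDEF vector. In mT6 its levels were 9.06 and 6.39 CPM in the controls (119 and 179 counts), 1.68 and 1.82 CPM in the knockouts (19 and 37 counts) and 17.5 and 13.7 CPM in the SPDEF vector libraries (150 and 117 counts). In mT69a they were 5.25 and 5.72 CPM in the controls (84 and 85 counts), 0.806 and 0.522 CPM in the knockouts (15 and 6 counts) and 24.3 and 22.2 CPM in the SPDEF vector libraries (410 and 246 counts). These groups of 2 libraries did not overlap, but how many genes do the same was not counted.

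From control to knockout the Foxa3 count was 4.09-fold lower in mT6 (interval 3.07 to 5.55) and 7.85-fold lower in mT69a (interval 4.97 to 13). The log2 change of Foxa3 was -2.11 in mT6 (SE 0.244, adjusted p = 0.00197), where 1.96% of genes were called lower. In mT69a it was -2.98 (SE 0.285, adjusted p = 0.000142). The falls differed by -0.87 (SE 0.384, adjusted p = 0.247). Between same-numbered libraries the mT6 log2 value was -2.36 for number 1 and -1.76 for number 2. In a fit of the mT6 groups alone the fall was -2.12 with adjusted p = 0.0906, and on log2(TPM + 1) without a filter -1.42 with adjusted p = 0.0635.

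From knockout to SPDEF vector the Foxa3 count was 8.83-fold higher in mT6 (interval 6.6 to 12) and 33.7-fold higher in mT69a (interval 21.8 to 54.7). Foxa3 rose by 3.14 (log2) in mT6 (SE 0.246, adjusted p = 0.000179) and by 5.06 in mT69a (SE 0.277, adjusted p = 1.14e-05). Of all genes, 1.55% were called higher in mT6 and 2.57% in mT69a. Averaged over the lines the rise was 4.10 (SE 0.186, adjusted p = 1.27e-06), where 4.46% of genes were called higher. The rises differed by 1.92 between the lines (SE 0.378, adjusted p = 0.239), in a test that called 2 genes, 0.0138% of those tested. With the replicate block this difference was 1.96 and passed, with adjusted p = 0.0367.

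The SPDEF vector libraries also stood above the controls. Foxa3 was 2.16-fold higher in mT6 (interval 1.82 to 2.55) and 4.29-fold higher in mT69a (interval 3.61 to 5.11), with an averaged log2 value of 1.56 (SE 0.152, adjusted p = 0.000104) and 8.04% of genes called higher. In mT69a the rise was 2.08 (SE 0.217, adjusted p = 0.000181, with 7.01% of genes called higher), and in mT6 it was 1.03 (SE 0.214, adjusted p = 0.0158, with 3.9% called higher). The mT6 call was lost without the second control library (adjusted p = 0.116) or the first SPDEF vector library (adjusted p = 0.0946). The difference between the lines was 1.05 (adjusted p = 0.0709), and 1.04 with adjusted p = 0.0139 under the block. Without the second mT6 control library it also passed, with adjusted p = 0.0446.

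Compared between lines, Foxa3 in the controls was 1.32-fold lower in mT69a (log2 difference -0.48, SE 0.218, adjusted p = 0.131). In the knockouts it was 2.54-fold lower (log2 difference -1.34, SE 0.316, adjusted p = 0.012), a call lost without the second mT6 knockout library (adjusted p = 0.0764) or the second mT69a knockout library (adjusted p = 0.0791). In the SPDEF vector libraries it was 1.5-fold higher in mT69a (log2 difference 0.57, SE 0.208, adjusted p = 0.084, and 0.58 with adjusted p = 0.02 under the block).

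**Figure D2:**
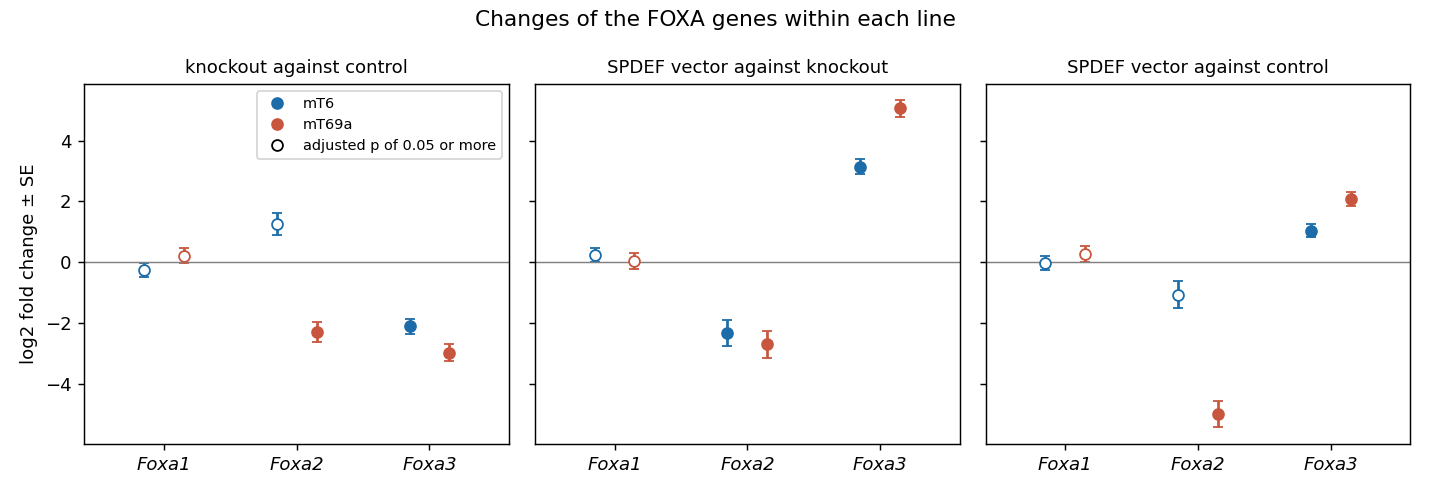
Log2 fold changes of Foxa1, Foxa2 and Foxa3 within mT6 (blue) and mT69a (red) for 3 comparisons, from the fit over all 12 libraries. Bars are 1 SE, and open points had an adjusted p of 0.05 or more. Foxa1 stays near 0, Foxa2 has opposite signs in the knockouts of the lines (1.26 and -2.30), and Foxa3 is lower in both knockouts and higher in both SPDEF vector groups.

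Levels of the paralogs were compared with each other in TPM (transcript abundance scaled for length and library size). In the mT6 controls Foxa1 made up 69.6% and 70.2% of the summed FOXA TPM, Foxa2 6.35% and 5.9% and Foxa3 24.0% and 23.9%. In the mT69a controls Foxa2 made up 63.2% and 59.0%, Foxa1 14.8% and 18.1% and Foxa3 21.9% and 22.9%. The control lines therefore had a like share of Foxa3 and opposite leading paralogs.

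In the knockouts Foxa1 led in both lines, with 76.8% and 72% in mT6 and 53.4% and 60% in mT69a. The share of Foxa3 in them was 5.64% and 8.53% in mT6 and 9.29% and 6.51% in mT69a. In the SPDEF vector libraries Foxa3 took 39.6% and 42.0% in mT6 and 80.9% and 82.5% in mT69a, where it was the leading paralog. Foxa2 was the least in all 4 of these libraries, at 2.59% and 2.11% in mT6 and 2.12% and 0.627% in mT69a.

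The summed FOXA level was 22.4 and 14.2 TPM in the mT6 controls, 18.2 and 11 TPM in the knockouts and 24.3 and 17.6 TPM in the SPDEF vector libraries. In mT69a it was 14.4 and 13 TPM in the controls, 6.03 and 4.15 TPM in the knockouts and 17.9 and 12.8 TPM in the SPDEF vector libraries. The mT69a knockouts thus had the lowest sum, and library 1 of every group exceeded library 2. The libraries numbered 2 also had the larger mitochondrial share, whose part in this was not tested.

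**Figure D3:**
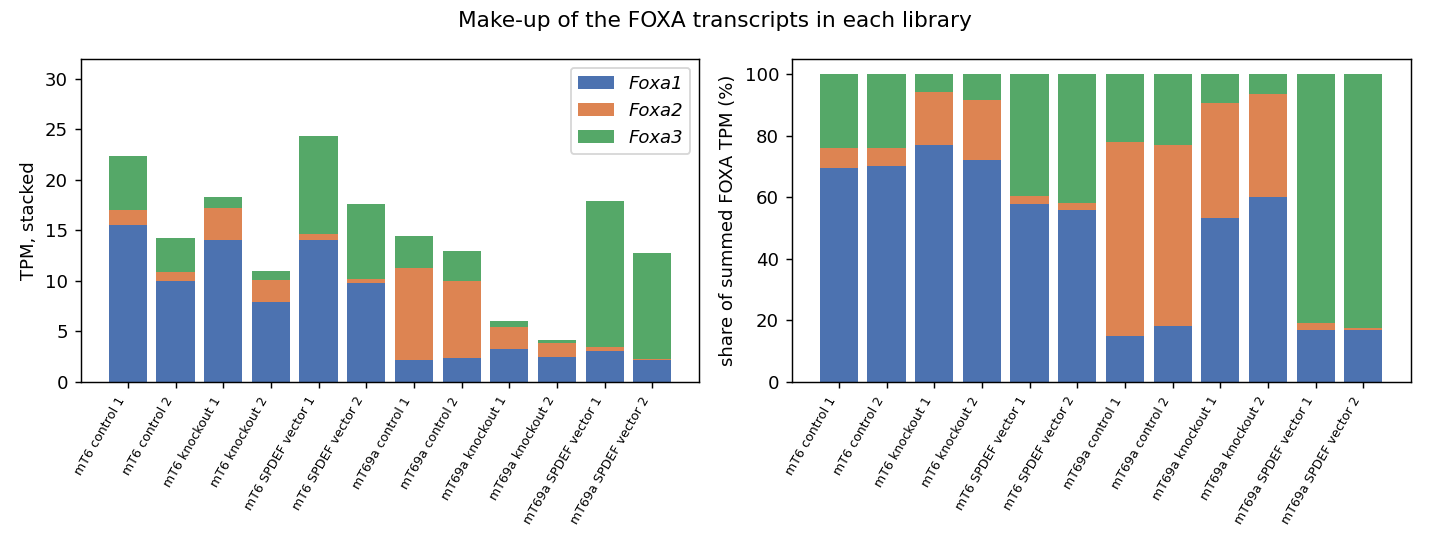
TPM of Foxa1, Foxa2 and Foxa3 stacked for each of the 12 libraries (left) and their shares of the summed FOXA TPM in percent (right). The leading paralog is Foxa1 in all mT6 libraries and in the mT69a knockouts, Foxa2 in the mT69a controls (63.2% and 59.0%) and Foxa3 in the mT69a SPDEF vector libraries (80.9% and 82.5%).

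The balance between 2 paralogs was tested as the log2 ratio of their TPM (pseudocount 0.1 TPM), averaged over the lines, with an exact two-sided permutation test of libraries within lines. With 36 arrangements the smallest p this design allows is 0.0556, so no balance could pass 0.05. From control to knockout the ratio of Foxa3 to Foxa1 moved by -2.39 and that of Foxa3 to Foxa2 by -1.85, each with exact permutation p = 0.0556. By line, Foxa3 to Foxa1 moved by -1.78 in mT6 and -3.01 in mT69a. Foxa3 to Foxa2 moved by -3.2 in mT6 but only by -0.504 in mT69a, where both genes fell. The ratio of Foxa2 to Foxa1 moved by 1.43 in mT6 and by -2.50 in mT69a, an average of -0.54 (exact permutation p = 0.556). Between knockout and SPDEF vector the ratio of Foxa3 to Foxa2 moved by 6.26, the widest shift of the 9 averaged ones, and that of Foxa2 to Foxa1 by -2.45 (exact permutation p = 0.0556 for both, adjusted over the 9 tests 0.0625). All 9 directions were kept under the other pseudocount, on CPM and under the block. With the libraries paired by number, as the block takes them, the smallest exact permutation p was 0.125.

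Among the 44 genes of the forkhead family annotated, Foxa1 ranked 2 by mean TPM in the mT6 controls and 18 in the mT69a controls. Foxa3 ranked 13 and 14 in the controls, 20 in the knockouts of both lines, and 8 and 3 in the SPDEF vector groups of mT6 and mT69a. Foxa2 ranked 8 in the mT69a controls, 17 in the mT69a knockouts and 19 with the SPDEF vector.

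**Figure D4:**
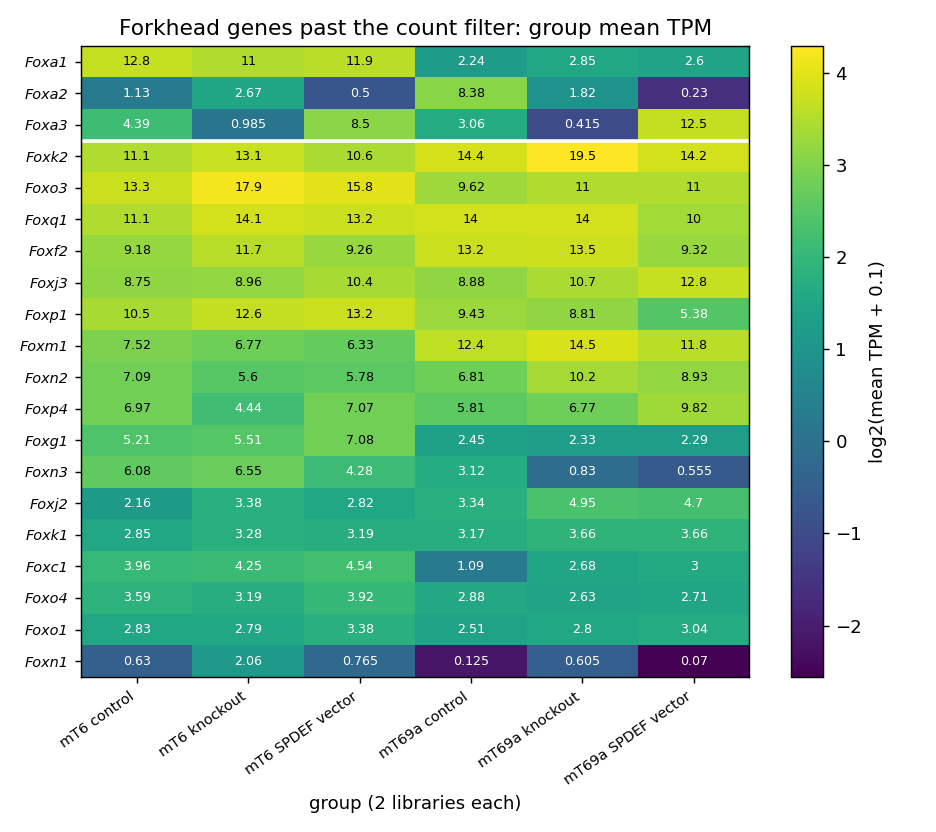
Group mean TPM of the FOXA genes (above the white line) and of the 17 other forkhead genes that passed the count filter, coloured by log2(TPM + 0.1). Across the 6 groups Foxa1 runs from 2.24 to 12.8 TPM, Foxa2 from 0.23 to 8.38 TPM and Foxa3 from 0.415 to 12.5 TPM. Other rows vary too, Foxn3 from 0.555 to 6.55 TPM and Foxn1 from 0.07 to 2.06 TPM. Foxo3, Foxk2, Foxq1 and Foxf2 are above 9 TPM in every group.

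Of the 41 forkhead genes listed without the FOXA genes, 17 passed the filter. From control to knockout 2 were called higher and 1 lower, with 3.3% and 2.3% of all genes called in those directions. Between knockout and SPDEF vector 2 were higher and 2 lower (4.46% and 3.32% of all genes), and from control to SPDEF vector 2 higher and 1 lower (8.04% and 6.41%). The median changes were 0.12, 0.03 and 0.19, against medians between -0.02 and 0.00 for all genes. Foxn1, a factor of thymic and skin epithelium, rose by 1.93 in the knockouts (SE 0.322, adjusted p = 0.00616) and fell by 2.10 with the SPDEF vector (adjusted p = 0.00415). By line that second change was -2.86 in mT69a (adjusted p = 0.0163) and -1.35 in mT6 (adjusted p = 0.149). Foxn3, a forkhead repressor, fell by 0.81 in the knockouts on average (adjusted p = 0.00118), with -1.74 in mT69a (adjusted p = 9.03e-05) and 0.11 in mT6 (adjusted p = 0.769). It fell by 0.52 from knockout to SPDEF vector (adjusted p = 0.016, lost in 4 of 12 fits without a library, with p up to 0.0865 without the second mT69a SPDEF vector library). Foxc1 rose by 0.65 in the knockouts on average (adjusted p = 0.0104, and 0.0501 without the second mT69a control library) and stood 0.89 above the controls with the vector (adjusted p = 0.00075). Both averages came from mT69a, with 1.19 (adjusted p = 0.00194) and 1.54 (adjusted p = 0.000294), against 0.10 (adjusted p = 0.847) and 0.24 (adjusted p = 0.446) in mT6.

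Factors that work beside FOXA in endodermal tissue were followed through 31 listed genes, of which 21 passed the filter. From control to knockout 2 were called higher and 6 lower, against 3.3% and 2.3% of all genes. By line, 1 was called higher and 0 lower in mT6 (1.28% and 1.96% of all genes), and 0 higher and 7 lower in mT69a (4.88% and 3.71%). Hnf4a, a nuclear receptor of liver, gut and pancreas, stood at 18.4 CPM in the mT6 controls and 20.6 CPM in the mT6 knockouts, and at 147 and 26.8 CPM in the same groups of mT69a. Like Foxa2, it was lower in the mT69a knockout (log2 value -2.44, adjusted p = 0.000144), with a value of 0.17 in mT6 (adjusted p = 0.809), and the difference between lines was -2.61 (adjusted p = 0.00129).

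From knockout to SPDEF vector 1 of these 21 factors was called higher and 4 lower (4.46% and 3.32% of all genes), and from control to SPDEF vector 1 higher and 7 lower (8.04% and 6.41%). The single factor called higher from the knockout was Onecut3, which rose by 1.90 averaged over the lines (SE 0.285, adjusted p = 0.00229). By line the Onecut3 value was 2.64 in mT69a (adjusted p = 0.0055) and 1.16 in mT6 (adjusted p = 0.193, not called). The test of a difference between the lines did not pass (adjusted p = 0.92). Its mean levels were 1.94 and 4.27 CPM in the mT6 knockout and SPDEF vector groups and 0.704 and 4.28 CPM in those of mT69a. Grhl3, a grainyhead factor of epithelial barriers, fell by 1.44 (SE 0.129, adjusted p = 8.87e-05). Sox17, an endoderm factor, was lower with the SPDEF vector than in the controls, at a log2 value of -1.22 (SE 0.135, adjusted p = 0.000215).

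Cofactors and hormone receptors linked to FOXA made up 26 listed genes, of which 25 had an identifier and 20 passed the filter. Called higher and lower were 4 and 1 from control to knockout (3.3% and 2.3% of all genes), 1 and 4 from knockout to SPDEF vector (4.46% and 3.32%), and 1 and 2 from control to SPDEF vector (8.04% and 6.41%). Tle4, a Groucho-type corepressor, fell by 0.79 in the knockouts (SE 0.125, adjusted p = 0.00446) and rose by 0.86 with the vector (SE 0.126, adjusted p = 0.00201), the direction of Foxa3. Tle3, of the same family, had the opposite signs on average, 0.82 from control to knockout (adjusted p = 0.0101, and 0.0553 without the second mT69a control library) and -0.78 with the vector (adjusted p = 0.0103, lost in 2 of 12 fits, with p up to 0.0512 without the second mT69a SPDEF vector library). In mT69a these were 1.49 (adjusted p = 0.00194) and -1.02 (adjusted p = 0.0246), and in mT6 0.16 (adjusted p = 0.798) and -0.54 (adjusted p = 0.312).

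Genes reported as FOXA targets in liver, lung, gut or bladder numbered 40, of which 14 passed the filter, so most were at or near 0 here. From control to knockout 1 was called higher and 2 lower, from knockout to SPDEF vector 2 higher and 1 lower, and from control to SPDEF vector 2 higher and 3 lower, where 5.6%, 7.77% and 14.5% of all genes were called in either direction. The median change from control to knockout was -0.08, against 0.00 over all genes. Agr2, a disulfide isomerase needed for mucin folding, fell by 3.82 on average (SE 0.528, adjusted p = 0.00398) and rose by 3.75 with the vector (SE 0.539, adjusted p = 0.00347). The knockout value of Agr2 was -2.42 in mT6 (adjusted p = 0.0572, not called). In mT69a it was -5.23 (adjusted p = 0.00827), with 10 summed counts in the knockouts. In mT69a its vector level, 6.61 CPM, lay below the controls at 12.8 CPM, unlike that of Foxa3. Ucp2, a mitochondrial carrier, fell by 0.74 in the knockouts on average (SE 0.095, adjusted p = 0.00128). By line this was -1.06 in mT6 (adjusted p = 0.00304) and -0.43 in mT69a (adjusted p = 0.0788, not called). Tfcp2l1, a grainyhead-like factor, rose by 0.73 in the knockouts on average (SE 0.106, adjusted p = 0.00278). Of 26 goblet cell genes listed, 21 passed the filter, with 0 higher and 6 lower from control to knockout (3.3% and 2.3% of all genes) and 8 higher and 3 lower from knockout to SPDEF vector (4.46% and 3.32%).

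The genes whose log2 CPM followed each paralog most closely over the 12 libraries were ranked among 11123 genes by Pearson's r, as a description, since the lines form separate sets. For Foxa1 they were Ddx17 (r = 0.99), Txndc9 (0.988), Dmrta2 (0.987), Insig2 (0.986) and Pygl (0.985), each of which separates mT6 from mT69a. For Foxa2 they were Rnf157 (r = 0.958), Lncenc1 (0.951), Sec23a (0.943), Il22ra1 (0.934) and Mmp28 (0.925), each highest in the mT69a controls. For Foxa3 they were Mpc1 (r = 0.985), Creb3l1 (0.931), Scap (0.925), Dennd6a (0.918) and Onecut3 (0.915). Creb3l1, a transcription factor of secretory cells, went from 7.67 to 0.772 to 36.7 CPM across control, knockout and SPDEF vector in mT6, and from 0.976 to 0.0972 to 20.4 CPM in mT69a.

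The neighbours of the FOXA genes on the chromosome were read to see whether whole regions moved. Of the 10 nearest protein-coding genes, 7 passed the filter around Foxa1, 4 around Foxa2 and 7 around Foxa3. None of the 4 around Foxa2 was called in any of the 9 comparisons within or across lines, and their values lay between -0.22 and 0.65. Of all genes, 2.69% to 14.5% were called in these comparisons, so few calls among 4 or 7 genes say little about a region. Around Foxa3, Dmpk was the single gene called from control to knockout, and it rose by 2.01 (adjusted p = 0.00346), with 2.91 in mT69a (adjusted p = 0.00357). Dmpk also had -1.21 from knockout to SPDEF vector (adjusted p = 0.0288, lost in 6 of 12 fits without a library, with p up to 0.127 without the first mT69a SPDEF vector library). Against the mT69a controls the vector value of Dmpk was 1.72 (adjusted p = 0.0493), a call lost in all 12 such fits. Around Foxa1 none was called in the averaged knockout comparison, and Sec23a had -0.70 in mT69a (adjusted p = 0.0143, lost in 3 of 12 fits without a library, with p up to 0.137 without the second mT69a knockout library). From control to SPDEF vector Sec23a fell by 0.635 averaged over the lines (adjusted p = 0.00247) and by 1.11 in mT69a (adjusted p = 0.000727). No other neighbour was called in these 9 comparisons. Over chromosome 12 the 565 tested genes shifted by a median of -0.34 in the mT69a knockouts, where Foxa1 had 0.22, while the medians of chromosomes 2 and 7 in the same comparison were 0.00 and -0.02. From control to SPDEF vector in mT69a the chromosome 12 median was -0.39, where Foxa1 had 0.26 and Sec23a -1.11. From knockout to SPDEF vector in mT69a it was -0.03. The part of this chromosome-wide shift in the mT69a values of Foxa1 and Sec23a was not tested.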

How the data were processed

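RNA from 12 organoid libraries (6 groups of 2) was extracted with Trizol and made into TruSeq Stranded Total RNA libraries, per the labels. FastQC 0.11.8, STAR 2.5.2b, RSEM 1.3.0 and GRCm38.p6 are named in the submitters' processing notes. The authors deposited expected counts and TPM per gene, and expected counts, TPM and the percent of each isoform per transcript. Counts off a whole number by over 0.005 were 8.08% to 11.3% of the gene values of a library (zeros included), and all were rounded here. Of 53715 identifiers 53620 matched a symbol in GENCODE M21.

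Genes kept by filterByExpr (14473) were fitted with edgeR 4.0.16 (robust quasi-likelihood, 6 group means, 6 residual degrees of freedom, coefficient of biological variation 19.2%, TMM factors 0.839 to 1.20). Depth ran from 9094295 to 28903831 counts. Comparisons were contrasts of that fit, two-sided, with Benjamini-Hochberg adjustment over all genes and a threshold of 0.05. The SE of an edgeR value is its absolute log2 change divided by the square root of the F statistic of its test. The 95% intervals of log2 values use this SE and a t distribution. Folds are ratios of summed counts over effective library sizes with exact 95% intervals, which cover counting error only. The alternatives used DESeq2 1.42.0, limma 3.58.1 on log2(TPM + pseudocount), other factors and filters, a replicate block and leaving out libraries. The software was Python 3.11.15 with scipy 1.17.1, pandas 2.3.3, numpy 2.4.6 and matplotlib 3.10.9, beside R 4.3.3. The fit was also run on simulated counts with independent libraries and no difference between the lines. That setting lacks the pairing of libraries described below, so nothing about these data was concluded from it.

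Same-numbered libraries deviated together. Over 15 pairs of groups the correlation of their deviations from the group means was 0.205 to 0.531 (median 0.282), so all 15 exceeded 0.1. This pairing by number was found in the data. The main fit and the main balance test left the pairing out, so their p-values ignore it. Only the replicate block, run as an alternative, took it in.

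The FOXA genes and the gene lists were chosen with earlier results of these data known. The text names the FOXA genes and Spdef, up to 4 called members per list and averaged comparison by size with a mean CPM of 1 or more, the 5 genes most like each FOXA gene, and called neighbours among 5 on each side. The list of forkhead genes holds 41 symbols. Some list members that the rule names are not reported here.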

Additional observations from a re-analysis of the deposited data

Results flagged for a closer look

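The response of Foxa2 to the Spdef knockout differed between the lines by -3.56 on the log2 scale (mT69a minus mT6, edgeR adjusted p = 0.00206), and its distance from control with the SPDEF vector differed by -3.94 (adjusted p = 0.00617). Among the related genes named, the same test of a difference between lines passed for several. For the knockout against control it was -1.85 for Foxn3, 1.09 for Foxc1, -2.61 for Hnf4a, 1.33 for Tle3 and -0.83 for Sec23a, a neighbour of Foxa1. For the SPDEF vector against control it was -1.80 for Foxn3, 1.3 for Foxc1, -2.33 for Hnf4a, -1.27 for Nr3c1, the glucocorticoid receptor, and -0.95 for Sec23a. These contrasts share the control libraries.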

How the results depend on the processing

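Alternatives that kept every library of the groups compared were counted. Direction and call were kept in 114 of 120 for Foxa1, 109 of 119 for Foxa2 and 105 of 120 for Foxa3. Among these settings, the fit of only the groups compared left out the libraries of the other groups. The paralog ratios kept their direction in 27 of 27. Their design allows no p under 0.0556, and for Foxa3 to Foxa2 from control to knockout the exact p reached 0.333. The Foxa2 fall between knockout and SPDEF vector, averaged over the lines, and the averaged Foxa3 changes kept their calls under every alternative run. Causes of the changes below were not tested.

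With the replicate block, calls were gained for Foxa2 in the mT6 knockout (1.27), Foxa2 between the knockout lines (-0.68), Foxa3 between the SPDEF vector lines (0.58) and the line differences of Foxa3 from knockout (1.96) and from control (1.04) to SPDEF vector. The block lost no call. DESeq2 gave 1.27 and the fit without a count filter 1.25 for Foxa2 in the mT6 knockout, both past the threshold, and without the filter the Foxa3 line differences were 1.94 and 1.08.

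On log2(TPM + 1), log2(TPM + 0.1) and log2(TPM + 1) without a filter, in that order, the Foxa1 knockout average turned to 0.01, 0.04 and 0.01, and Foxa1 from knockout to SPDEF vector in mT69a to -0.11, -0.14 and -0.11. The Foxa2 line difference from knockout to SPDEF vector turned to 0.09 on log2(TPM + 1) with and without the filter. Foxa3 from control to SPDEF vector in mT6 lost its call at 0.83, 0.96 and 0.83, and Foxa3 between knockout lines at -0.50, -1.13 and -0.50. Foxa2 from knockout to SPDEF vector lost its call in mT6 at -2.22 on log2(TPM + 0.1), and without a filter at -1.28 in mT6 and -1.19 in mT69a, where Foxa3 in the mT6 knockout was -1.42. Fitting only the groups compared lost the calls of Foxa3 in the mT6 knockout (-2.12), Foxa3 from control to SPDEF vector in mT6 (1.02), Foxa3 between knockout lines (-1.36) and Foxa2 from knockout to SPDEF vector in mT6 (-2.32). Foxa2 between the SPDEF vector lines had no value there, since it failed the filter.

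Genes called numbered 810 from control to knockout, and 309, 291 and 302 on the TPM scales, 1555 without a filter and 2171 with the block. From knockout to SPDEF vector they numbered 1125, then 479, 461, 420, 1740 and 2293. From control to SPDEF vector they numbered 2092, then 825, 821 and 728 on the TPM scales and 3677 with the block. On log2(TPM + 0.1) the share of called genes that were higher from knockout to SPDEF vector was 47.1% in place of 57.3%, and the median of all genes moved to -0.129.

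Leaving out each library in turn, with a lone library assumed to vary like the other groups, Foxa1 ranged from -0.16 to 0.12 (control to knockout), -0.54 to 0.02 (the same in mT6), -0.03 to 0.52 (knockout to SPDEF vector in mT6), -0.05 to 0.14 (in mT69a), -0.47 to 0.08 (its line difference), -0.01 to 0.26 (control to SPDEF vector) and -0.28 to 0.25 (in mT6). Foxa2 from knockout to SPDEF vector ranged from -2.74 to -1.99 in mT6, -4.00 to -2.18 in mT69a and -1.67 to 0.14 for the line difference, and from control to SPDEF vector in mT69a from -6.3 to -4.49. Foxa3 from control to SPDEF vector ranged from 0.79 to 1.29 in mT6 and 0.79 to 1.3 for the line difference, and between knockout lines from -1.72 to -1.11. Genes called ranged from 431 to 889, 637 to 1098 and 1208 to 1904. Of 45 results for related and neighbouring genes, 26 kept their call in every such fit. On log2(TPM + 1), log2(TPM + 0.1) and log2(TPM + 1) without a filter 28, 26 and 34 of the 45 lost it, and with DESeq2 and with the block 2 and 0.

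With 2 libraries a group, and 16 and 13 Foxa2 counts in the SPDEF vector groups, small changes were not detectable.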
